A study of Equus caballus with 12 samples.

Results

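miR-122 (eca-miR-122) was followed by its own name through small RNA libraries of 3 horse tissues. It is 1 of 294 known horse miRNAs among the 629 entries of the table analysed, and the other 335 entries are named by sequence. Tissue came from 4 cold-blooded stallions aged 1 to 2 years, numbered 27, 30, 32 and 34. Each horse gave 1 library of the left ventricle of the heart, 1 of the right lobe of the liver and 1 of the caudal lobe of the right lung, which makes 12 libraries and 4 per tissue. No horse was treated, and each library was made from bulk tissue, so that fewer cells of a type and less RNA per cell cannot be told apart. The p-values rest on the spread between the libraries of these 4 stallions. With 1 library per horse and tissue, differences between animals and between libraries cannot be told apart.

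A miRNA is a short RNA that is cut from a hairpin precursor, is held by an Argonaute protein and pairs with target mRNAs through its seed, the stretch near its 5′ end. Pairing usually lowers the stability and translation of the target. miR-122 is the classic hepatocyte miRNA. It is known for its high level in liver, for its part in cholesterol and fatty acid metabolism and as a host factor of hepatitis C virus. In the RefSeq annotation of the TB-T2T horse assembly, which differs from the build used by the authors, the gene MIR122 lay within the span of the long noncoding RNA LOC138925426. Its nearest protein-coding neighbours there were NEDD4L, a ubiquitin ligase, and ALPK2, an atypical protein kinase.

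Values are normalized counts, meaning reads divided by a size factor of the library that the authors estimated with DESeq2. The reads behind each value were derived from the smallest value of each library, taken as 6 reads, the minimum read count of the study. All values (100%, within 0.01) were then whole numbers of reads, and an entry at 0 was taken as under 6 reads in that library. This may not hold for every entry, since miR-142-5p had 6977 reads in the liver of horse 34 and 0 in the other livers. Heart libraries held 8113895 to 9355513 reads of the table, lung libraries 3536536 to 7560746 and liver libraries 3066869 to 8595569, with the fewest in the liver of horse 27 and the lung of horse 34. Shares are of these reads, and intervals cover counting error only, since the reads carry no molecular identifiers. The heart libraries had the largest sums of normalized counts, and miR-1, a miRNA of striated muscle, took 42.7 to 51.1% of their reads. Reads per 1000000 reads of the library (RPM) are given beside the normalized counts.

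miR-122 was the most abundant known miRNA in all 4 livers. By its mean it ranked 87th of the 252 known miRNAs above 0 in heart and 90th of 268 in lung. The median levels of these miRNAs were 308 and 319 normalized counts. In liver it reached 1359774 normalized counts in horse 27, 1044284 in horse 30, 948651 in horse 32 and 1165485 in horse 34. The mean was 1129549 ± 177284 (SD, n = 4), and the highest liver lay 1.43 times above the lowest. In heart the values were 1161 in horse 27, 737 in horse 30, 1059 in horse 32 and 3116 in horse 34, with a mean of 1518 ± 1080.4 (SD, n = 4). Lung gave 234 in horse 27, 2294 in horse 30, 1746 in horse 32 and 1359 in horse 34, with a mean of 1408 ± 872 (SD, n = 4). The 4 livers lay far above every heart and lung library, while the heart and lung values overlapped. The heart of horse 34 was the highest of its tissue, and the lung of horse 27 was the lowest of all 12 libraries.

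**Figure D1:**
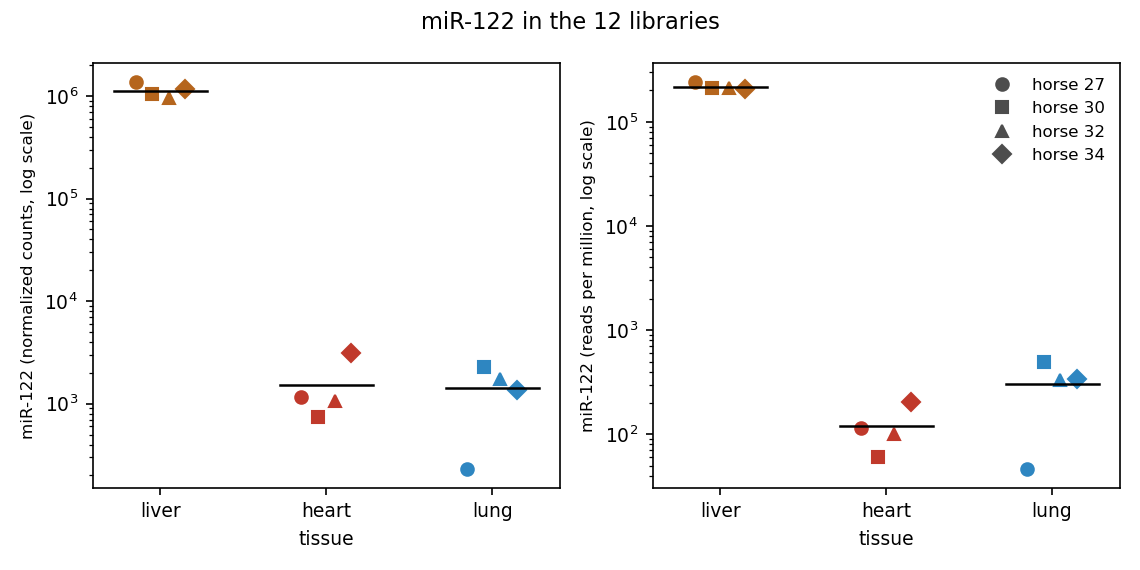
miR-122 in each library, as normalized counts (left) and as reads per 1000000 reads in the table (right), both on log axes. Points are libraries, marker shapes are the 4 horses and black lines are tissue means; the livers sit between 948651 and 1359774 normalized counts, and the heart and lung libraries between 234 and 3116.

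Liver held 99.7% of the sum of the 3 tissue means, heart 0.134% and lung 0.124%. Within single horses, liver held 99.9% of the sum in horse 27, 99.7% in horses 30 and 32 and 99.6% in horse 34. The mean level in liver was 744 times that in heart and 802 times that in lung. In RPM the folds of the means were 1808 and 717. In normalized counts, without the heart of horse 34 the first of these folds was 1146, and without the lung of horse 27 the other was 628. Paired by horse, the liver to heart fold was 1171 in horse 27, 1417 in horse 30, 896 in horse 32 and 374 in horse 34, and in RPM it was 2100, 3448, 2094 and 1010 in the same order. The liver to lung fold was 5822 in horse 27, 455 in horse 30, 543 in horse 32 and 858 in horse 34, and in RPM it was 5102, 426, 644 and 605. Every pair showed a fold of 374 or more on both scales.

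Tested with limma across 256 known miRNAs, those that reached 10 normalized counts in 4 or more libraries, miR-122 was higher in liver than in heart by 9.75 on the log2(normalized count + 1) scale (SE 0.65). The 95% interval ran from 8.33 to 11.17, or 322-fold to 2311-fold, and the limma adjusted p was 1.36e-07. This was the third highest of the 256 log2 fold changes. A miRNA was called where its log2 fold change was 1 or more in size and its adjusted p below 0.05, and 27% of the tested miRNAs were called higher in liver than in heart. All 4 liver values lay above all 4 heart values for 32.4% of the tested miRNAs. Scaling every library to 1 common total (CPM scaling) gave 10.95 for miR-122, where the median of all tested miRNAs moved up by 1.13, and without the heart of horse 34 the value was 10.17. Under CPM scaling 136 miRNAs were called higher and 27 lower, against 69 and 51 with the size factors of the authors.

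Against lung, miR-122 was higher in liver by 10.04 on the same log2 scale (SE 0.65, 95% interval 8.62 to 11.46, limma adjusted p 1.52e-07), which was the highest of the 256 log2 fold changes. The interval corresponds to 393-fold to 2820-fold. Of the tested miRNAs, 26.6% were called higher in liver than in lung, and 27% had all liver values above all lung values. The lung of horse 27 decided part of this size, since without it the log2 difference was 9.31.

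miR-122 took 21.7% ± 1.54 (SD, n = 4) of the reads of the liver libraries. The share was 23.97% in horse 27 (Wilson 95% interval 23.92 to 24.01%), 21.08% in horse 30 (21.05 to 21.11%), 21.19% in horse 32 (21.16 to 21.23%) and 20.53% in horse 34 (20.51 to 20.56%). Horse 27 stood highest on this scale too, and it was also the liver with the fewest reads in the table.

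The next miRNAs in the livers were miR-26a with 14.4% ± 1.17 of the reads, let-7a with 11.3% ± 1.13, miR-148a with 8.97% ± 1.14 and miR-21 with 3.25% ± 0.81 (SD, n = 4). miR-26a and let-7a are miRNAs of many tissues, miR-148a is enriched in hepatocytes and miR-21 is a widely expressed miRNA of growth and injury responses. miR-26a was second in each liver, and miR-122 exceeded it 1.82-fold in horse 27, 1.54-fold in horse 30, 1.37-fold in horse 32 and 1.34-fold in horse 34. Reads of different miRNAs also reflect how well each ligates and amplifies, so these ratios describe the libraries. In contrast to miR-122, miR-26a stayed among the abundant miRNAs in the other tissues, with 6.77% of the heart reads and 16.8% of the lung reads.

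**Figure D2:**
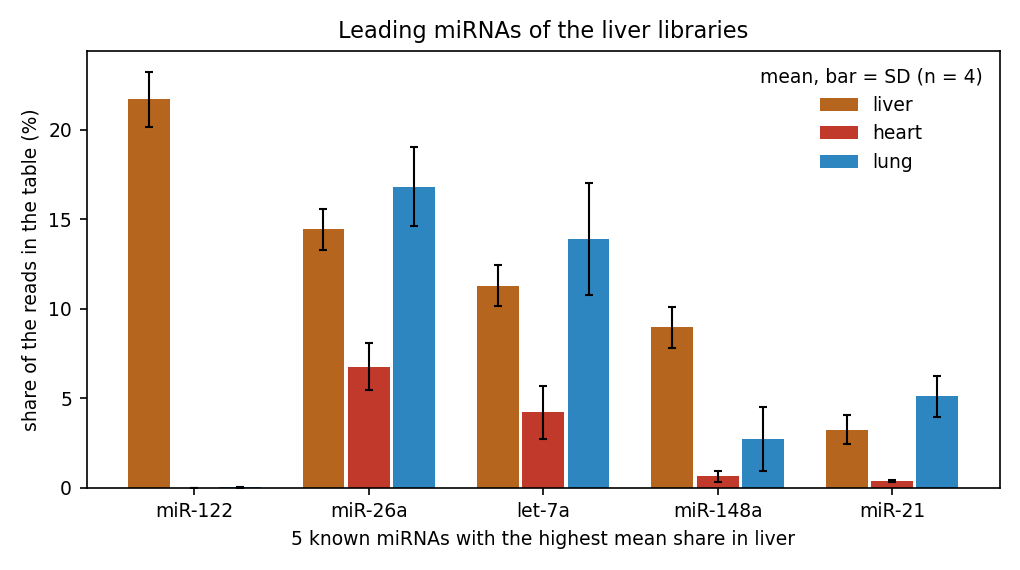
Mean share of the reads in the table (%, linear axis from 0) of the 5 known miRNAs with the highest mean share in liver, in liver, heart and lung; bars are means and error bars are the SD over 4 libraries. miR-122 holds 21.7% in liver and its heart and lung bars are too low to be seen, while miR-26a and let-7a are high in liver and lung alike.

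The level of miR-122 varied little between livers. Its coefficient of variation was 15.7% on normalized counts, and among the 97 known miRNAs with a liver mean of at least 1000 normalized counts, 21 had a lower coefficient and the median was 22.0%. On the share of reads the coefficient was 7.11%, lower than that of all but 3 of the 97, where the median was 22.7%. In heart the coefficient on normalized counts was 71.2% and in lung 61.9%, with the highest library 4.23 and 9.82 times the lowest. In each of these tissues 1 library made up much of the spread, the heart of horse 34 and the lung of horse 27.

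The low levels in heart and lung rested on 290 to 3711 reads per library. The reads of miR-122 numbered 934, 496, 947 and 1852 in the hearts of horses 27, 30, 32 and 34, against 735023 to 1764866 in the livers. In RPM this was 114 in horse 27 (Wilson 95% interval 107 to 121.7), 61.1 in horse 30 (56.0 to 66.8), 101 in horse 32 (94.98 to 108) and 203 in horse 34 (194.3 to 213). In the lungs of the same horses there were 290, 3711, 2489 and 1201 reads. In RPM, lung gave 47.0 in horse 27 (41.9 to 52.7), 494 in horse 30 (479 to 510), 329 in horse 32 (317 to 342) and 340 in horse 34 (321 to 359). The intervals of the hearts of horses 27 and 32 overlapped, as did those of the lungs of horses 32 and 34, and the other libraries of a tissue differed by more than their intervals. Each of these libraries lay well above the minimum of 6 reads, so that miR-122 was detected in all 12 libraries. Its rank among the known miRNAs was 87, 100, 97 and 65 in the hearts of horses 27, 30, 32 and 34, and 138, 74, 82 and 89 in their lungs.

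**Figure D3:**
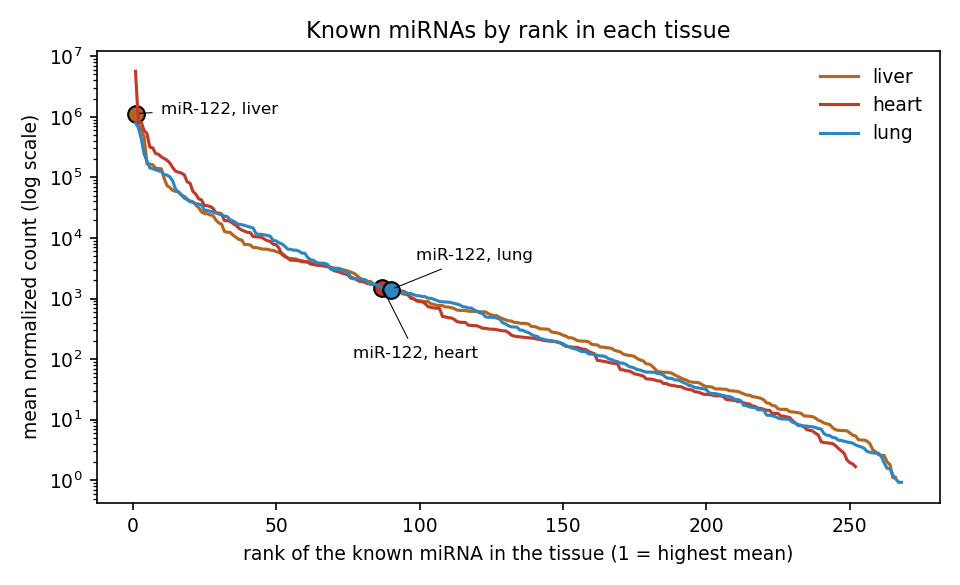
Known miRNAs ordered by their mean normalized count in each tissue (x axis, rank; y axis, mean normalized count on a log scale; miRNAs at 0 in a tissue are left out). The circles mark miR-122, which is first in liver, 87th in heart and 90th in lung.

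The order of heart and lung was not resolved. By limma the log2 difference of lung over heart was -0.29 (SE 0.65, 95% interval -1.71 to 1.13, limma adjusted p 0.742), which allows lung levels from 0.306 to 2.20 times those of heart. An exact two-sided permutation test of the 4 against 4 log2 values gave p = 0.8286, where the smallest possible p is 0.0286. Of the tested miRNAs, 19.5% were called higher and 19.1% lower in lung than in heart. The lung to heart ratio was 0.201 in horse 27, 3.11 in horse 30, 1.65 in horse 32 and 0.436 in horse 34, so that lung was higher in 2 horses and lower in 2. In RPM it was 0.412, 8.09, 3.25 and 1.67 in the same horses, which is higher in lung in 3 of 4.

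The sign of this difference turned with the scaling and with single libraries. Under CPM scaling, which moved the median of all tested miRNAs by 1.18, the log2 difference was 1.04 (limma adjusted p 0.174), and 120 miRNAs were called higher and 17 lower in lung, against 50 and 49 with the size factors of the authors. Without the lung of horse 27 it was 0.44, and without the heart of horse 34 it was 0.13 (limma adjusted p 0.423 and 0.898).

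miR-122 was then set beside 4 other miRNAs known from hepatocytes, namely miR-148a, miR-194, miR-215 and miR-885-5p. miR-194 and miR-215 are miRNAs of hepatocyte and intestinal epithelium, and miR-885-5p is a liver-enriched miRNA of blood tests for liver injury. All 5, miR-122 included, were called higher in liver than in heart, against 27% of all tested miRNAs. Their median log2 difference was 7.55, against 0.23 over all tested miRNAs, and the 4 others ran from 2.76 to 8.05. All 5 were also called higher in liver than in lung, against 26.6% of all tested miRNAs, with a median of 7.38 against -0.079. The list holds miR-122 and was chosen with earlier results of these data known, so these counts are descriptions only. In both comparisons miR-122 had the largest log2 difference of those members that were above 0 in both tissues. In lung against heart, miR-194 was called higher (1.31, limma adjusted p 0.000762), and miR-122, miR-148a and miR-215 were not called. The fit also called miR-885-5p lower in lung, but this call rests on the minimum of 6 reads and no lower level is shown. CPM scaling, which called 46.9% of all tested miRNAs higher in lung, called miR-148a (2.02) and miR-215 (1.46) higher in lung as well.

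miR-194 was at 34984 ± 1068 normalized counts in liver, 133 ± 25.3 in heart and 339 ± 98.1 in lung (SD, n = 4). It was higher in liver by 8.05 on the log2 scale against heart (limma adjusted p 1.14e-10) and by 6.73 against lung (limma adjusted p 8.30e-10). miR-215, whose reads may be shared with a near-identical relative, was at 6274 ± 1573 in liver, 35.3 ± 18.6 in heart and 36.8 ± 9.88 in lung. Its log2 differences were 7.55 (limma adjusted p 1.54e-08) and 7.38 (limma adjusted p 2.53e-08). Both were thus low in heart and lung relative to liver, as miR-122 was, but at far lower levels in liver itself.

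miR-885-5p was at 618 ± 181 normalized counts in liver and 11.4 ± 0.813 in heart, where it rested on 7 to 11 reads per library, and it was listed at 0 in all 4 lungs. In RPM the hearts had 0.769 to 1.18, and 6 reads in a lung amount to 0.794 to 1.70, so that heart and lung cannot be ordered for this miRNA. Taking each 0 as under 6 reads, liver was at least 126-fold higher than lung. This puts the median of the list at 6.98 on the log2 scale. miR-148a was the exception of the list, with 470044 ± 106001 in liver, 80195 ± 51092 in heart and 132883 ± 100034 in lung. Its log2 differences were 2.76 against heart (limma adjusted p 0.000861) and 2.06 against lung (limma adjusted p 0.00555).

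Expressed as a percentage of the liver mean, miR-122 stood at 0.134% in heart (0.0653 to 0.276% over the libraries) and 0.125% in lung (0.0207 to 0.203%). miR-194 stood at 0.381% in heart (0.285 to 0.444%) and 0.968% in lung (0.688 to 1.27%), and miR-215 at 0.562% in heart and 0.587% in lung. miR-148a reached 17.1% in heart and 28.3% in lung. Taken from RPM, miR-122 stood at 0.0553% in heart (0.0282 to 0.0937%) and 0.139% in lung (0.0217 to 0.228%), and miR-194 at 0.168% in heart (0.121 to 0.225%) and 1.08% in lung (0.667 to 1.63%).

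**Figure D4:**
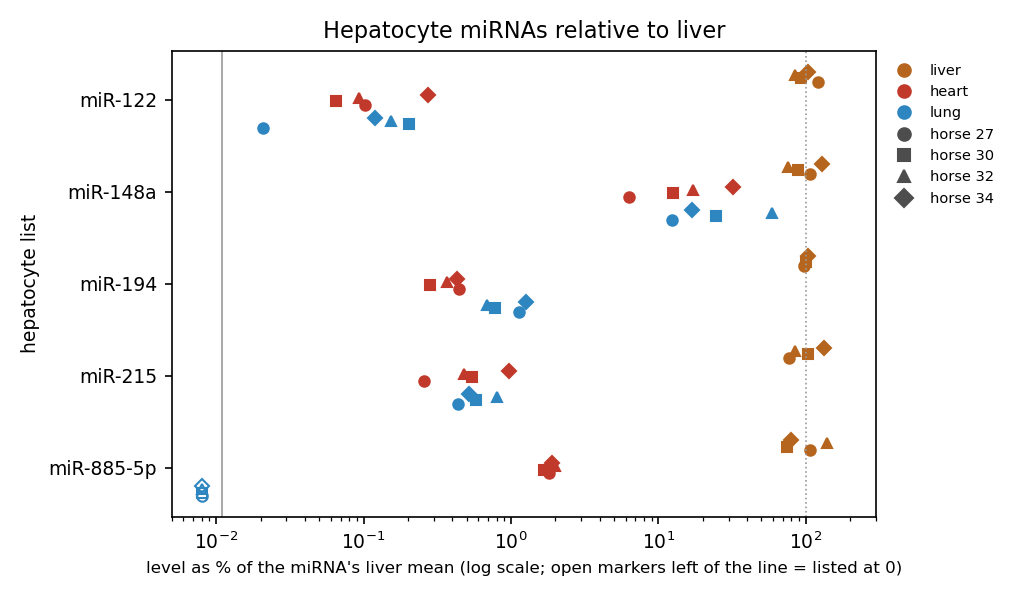
Level of the 5 hepatocyte miRNAs in each library as a percentage of the liver mean of the same miRNA (log x axis), with colour for tissue and marker shape for horse; open markers at the left edge are libraries listed at 0. miR-122 lies between 0.0207 and 0.276% in heart and lung, and miR-148a has the highest percentages there (6.36 to 59.3%).

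The ratio of miR-122 to miR-194 in the same library does not depend on the scaling. In liver it was 40.1 in horse 27, 29.5 in horse 30, 27.6 in horse 32 and 32.1 in horse 34, with a geometric mean of 32.0. In heart it was 7.47, 7.40, 8.23 and 20.8 in the same order of horses (geometric mean 9.87), with 67 to 125 reads of miR-194 per library. In lung it was 0.585, 8.47, 7.26 and 3.06 (geometric mean 3.24), with 343 to 496 reads of miR-194. The livers did not overlap heart or lung, and heart and lung overlapped each other. In the lung of horse 27 alone, miR-122 was rarer than miR-194 (counting interval of the ratio 0.506 to 0.676).

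The log2 ratio was higher in liver than in heart by 1.70, or 3.24-fold, and higher in all 4 livers than in any heart (exact two-sided permutation test, p = 0.0286, 0.0429 adjusted over 3 comparisons). Against lung it was higher in liver by 3.30, or 9.88-fold (exact p = 0.0286, adjusted 0.0429), and without the lung of horse 27 by 2.48. The p of 0.0286 is the smallest that 4 against 4 libraries can give. With labels exchanged only within horses the smallest possible p is 0.125, and both comparisons reached it (adjusted 0.1875, the value with the horse as a block). Lung against heart differed by -1.61 (exact p = 0.171, adjusted 0.171). The ratio of miR-122 to miR-215 had geometric means of 182 in liver, 40.9 in heart and 29.6 in lung, and that to miR-148a 2.43, 0.0190 and 0.00963.

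**Figure D5:**
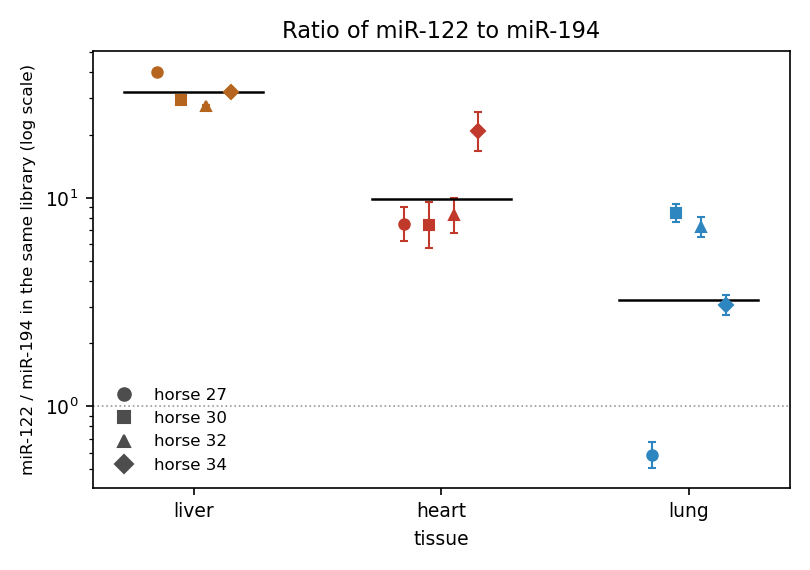
Ratio of miR-122 to miR-194 in the same library (log y axis) by tissue; marker shapes are horses, error bars are 95% counting intervals, black lines are geometric means and the dotted line marks a ratio of 1. The livers lie between 27.6 and 40.1, 3 hearts near 8 with horse 34 at 20.8, and the lungs between 0.585 and 8.47.

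The labelled tissues were checked against miRNAs of other cell types. The striated muscle list, all 6 members of which were in the table, summed to 5460419 to 8413936 normalized counts in the hearts, but to 1511 to 6447 in the livers and 8693 to 12572 in the lungs. Over all tested miRNAs, 19.9% were called lower in liver than in heart and 25% lower in liver than in lung. In lung against heart, 19.1% were called lower. The 5 tested members of the list were all called lower in liver than in heart and lower in lung than in heart, and 3 were lower in liver than in lung. The heart marker miR-208b was at 1741 to 2100.4 normalized counts in the hearts and at 0 in all liver and lung libraries, while miR-208a was above 0 in 1 heart alone (255 in horse 27). miR-1, the leading heart miRNA, stood in liver at 0.0597% and in lung at 0.159% of its heart mean. Of 6 epithelial miRNAs, 5 were called higher in liver than in heart, 6 lower in liver than in lung and 6 higher in lung than in heart, against 27%, 25% and 19.5% of all tested miRNAs. Of 3 miRNAs of multiciliated cells, 3 were higher in lung than in either tissue.

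Of a red blood cell list of 4, miR-486-5p and miR-144 were present, and only miR-486-5p was tested. miR-144 was at 0 in all 4 hearts. It was above 0 only in the livers of horses 27 (44.4) and 32 (163) and the lung of horse 34 (1350). With miR-144 at 0 in most libraries, it gives no order of the tissues. miR-486-5p was at 5620 ± 1245 normalized counts in liver, 110325 ± 38728 in heart and 42989 ± 21643 in lung (SD, n = 4). miR-486-5p was called lower in liver than in both. It was also called lower in lung than in heart, at a log2 difference of -1.44 (limma adjusted p 0.00839), but CPM scaling gave -0.11 with no call. Of 5 tested leukocyte miRNAs of a list of 8, 1 was higher and 2 lower in liver than in heart, 4 were lower in liver than in lung, and 3 were higher and 1 lower in lung than in heart. The shares over all tested miRNAs were 27% higher and 19.9% lower, 25% lower, and 19.5% higher and 19.1% lower, in the same order. Of the 5, miR-142-5p was at 0 in the livers of horses 27, 30 and 32 and the lungs of horses 32 and 34. It was at 4607 in the liver of horse 34 and at 11310 and 5832 in the lungs of horses 27 and 30. Its log2 difference of liver over heart was -7.50 (SE 3.53) and was not called. CPM scaling called 2 of the 5 higher and 2 lower in liver than in heart, and 3 higher and 0 lower in lung than in heart. Over all 256 tested miRNAs it called 53.1% higher and 27 lower in liver than in heart. In lung against heart it called 46.9% higher and 17 lower. Of 4 tested miRNAs of smooth muscle and mesenchymal cells from a list of 5, 1 was lower in liver than in heart and 1 lower in liver than in lung, which is near the 19.9% and 25% of all tested miRNAs. Between lung and heart 0 of these were called by limma and 1 had an unadjusted p under 0.05. CPM scaling called 2 higher in lung, near its share of 46.9% over all tested miRNAs, and 0 lower in liver than in heart.

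In the heart of horse 34, where miR-122 was highest, miR-148a (149991 normalized counts) and miR-215 (60.6) were the highest of the 4 hearts as well, while miR-194 (150 against 99.6 to 155) and miR-885-5p (11.8 against 10.4 to 12.3) were not. miR-486-5p was also highest there in normalized counts, at 160133 against 66906 to 114650 in the other hearts, but not in RPM (10450.0 against 5548 to 10963), whereas miR-122, miR-148a and miR-215 were highest there on both scales. In the lung of horse 27, where miR-122 was lowest, miR-148a (57806) and miR-215 (27.4) were the lowest of the 4 lungs, miR-194 (399 against 241 to 443) was not, and miR-486-5p was the highest (66840 against 23889 to 55783). miR-215 rested on few reads, 13 to 36 per heart (36 in horse 34 and 27 in horse 32) and 29 to 72 per lung (34 in horse 27). Counting error could therefore alter its place in both tissues. The hepatocyte list summed without miR-122 was 30062 to 150213 in the hearts, 58232 to 278831 in the lungs and 399832 to 647089 in the livers. Most of each sum was miR-148a, at 29880 to 149991 in the hearts, 57806 to 278539 in the lungs and 359262 to 601914 in the livers. The part of blood, of other cells and of reads from other libraries in the low levels in heart and lung was not tested.

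The 8 miRNAs with a pattern most like that of miR-122, by Pearson correlation of log2(normalized count + 1) over the 12 libraries among 201 miRNAs with a mean of at least 100 in a tissue, were miR-215 (r = 0.986), miR-383 (0.977), miR-372 (0.975), miR-8908h (0.973), miR-8908m (0.973), miR-8908c (0.970), miR-8908e (0.968) and miR-8908b (0.964). The median correlation over the 201 was 0.014, and 19 were over 0.9. These are descriptions over 12 libraries from 4 horses. All 8 reached a mean of 100 in liver alone. Those other than miR-215 were at 0 in every heart and at or near 0 in lung. Their correlations describe the step between liver and the other tissues, and do not compare single heart or lung libraries. miR-194 was in place 9 (0.962), miR-885-5p in place 16 (0.913) and miR-148a in place 24 (0.872).

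miR-122 differed from these miRNAs in its level. The 7 neighbours other than miR-215 had liver means of 115 to 2217 normalized counts, against 1129549 for miR-122, and were at 0 in all heart libraries. In lung, miR-8908b had a mean of 5.56 and the other 6 were at 0. Among 202 miRNAs with a mean of at least 100 in a tissue, 8 had a larger liver part of the 3-tissue sum than the 99.7% of miR-122, and 13, miR-122 among them, had over 99%. Apart from miR-122 these 13 were miR-383, miR-372 and members of the miR-8908 family. With each 0 set to 6 reads, the other 12 fell to between 89.7 and 99.2% and 0 of them remained above miR-122. Where a 0 means under 6 reads, this sets only a lower bound on their liver part. At their low liver means, 6 reads per library by themselves keep each bound below 99.7%. The bound therefore cannot rank them against miR-122. All 12 were at 0 in every heart library, taken here as below the minimum of 6 reads, whereas miR-122 was counted in every library.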

How the data were processed

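Small RNA of heart, lung and liver of 4 horses was measured in 12 libraries. The paper's methods state FastQC 0.12.1 for quality control, trimming by Trim Galore 0.6.7, a length filter of 18 to 25 nt and counting by sRNAbench against miRBase 22.1; the submitters' notes name bcl2fastq, Trimmomatic and BWA. The deposited values are a signal, counts that the authors divided by DESeq2 size factors. Columns with the authors' own comparison of liver and lung (fold changes and p-values) were not used.

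Known miRNAs that reached 10 normalized counts in 4 or more libraries were fitted by limma 3.58.1 (R 4.3.3) on the log2(normalized count + 1) scale, with a variance trend, a mean for each tissue and Benjamini-Hochberg adjustment over all 256. Ratios were compared with exact permutation tests. The scripts used Python 3.11.15 with scipy 1.17.1, pandas 2.3.3, matplotlib 3.10.9 and numpy 2.4.6, and the fit was tested on simulated data. Alternatives were pseudocounts of 0.5 and 10, other filters, CPM and TMM scaling, the horse as a block, and each horse and library left out.

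The named miRNAs were miR-122, the hepatocyte list, the 5 most abundant in liver, the 8 most alike, and members of the lists of striated muscle, epithelial, multiciliated, red blood cell, leukocyte, and smooth muscle and mesenchymal cells by counts. Other names (miR-1, miR-208a, miR-208b, miR-486-5p, miR-144, miR-142-5p and the miRNAs with over 99% of their level in liver) were chosen after their values were seen. The members and lists were chosen with earlier results of these data known. miRNA sequences were not used here, so that seeds and hairpin matches were not compared. The same number is the same horse, which pairs the samples. Over the 12 pairs of libraries that share a horse, the correlation of their deviations from the tissue means had a median of -0.057 (-0.27 to 0.15).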

Additional observations from a re-analysis of the deposited data

Results flagged for a closer look

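The ratio of miR-122 to miR-194 in the heart of horse 34 stood apart from its group. It was 20.8, and the other 3 hearts lay between 7.40 and 8.23. The gap to the nearest heart was 0.938 of the whole range, above the 95% critical value of Dixon's test for 4 samples. It was the 1 such case among 21 groups of 4 libraries examined, and chance gives about 1 in 20.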

How the results depend on the processing

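miR-122 was called higher in liver under each of the 24 alternatives run, with log2 differences of 9.48 to 10.95 against heart and 9.22 to 10.44 against lung, and all 5 hepatocyte miRNAs were called in both comparisons under each. The horse as a replicate block left the 3 differences at 9.75, 10.04 and -0.29 (limma adjusted p 0.753 for the last) and changed no limma call of miR-122 or the other hepatocyte miRNAs. The log2 difference of lung over heart, -0.29, turned to 1.04 under CPM scaling and to 0.14 when libraries were scaled to their total without miR-1 and miR-122, an alternative chosen after seeing the data. With a horse or library left out it ran from -0.93 to 0.44, and was above 0 without horse 27 (0.39), horse 34 (0.017), the heart of horse 34 (0.13) or the lung of horse 27 (0.44). The limma adjusted p of this difference was at least 0.174 throughout. CPM scaling called 4 in place of 2 hepatocyte miRNAs between lung and heart, while the calls over all known miRNAs rose from 99 to 137. Both counts of hepatocyte miRNAs include miR-885-5p, whose call rests on the minimum of 6 reads. For the ratio to miR-194, the median in place of the mean gave 1.97 (liver against heart) and 2.71 (liver against lung), each with an adjusted p of 0.0857 by the exact test. With the horse as a block the differences were 1.70 and 3.30 (adjusted 0.1875, the smallest p this design allows being 0.125). With 1 library left out they ran from 1.56 to 2.06 and from 2.48 to 3.77, and 4 against 3 libraries cannot reach the threshold. Without the most abundant other miRNA in the total, the share of miR-122 was 25.3% in liver and 0.0229% in heart, against 21.7% and 0.0120%. Calls over all known miRNAs numbered 102 to 163 (liver against heart, 120 as reported), 115 to 137 (liver against lung, 132) and 87 to 137 (lung against heart, 99). The planned edgeR and DESeq2 tests on reads were not run, since the reads used here rest on an assumed minimum of 6. Depth limits miR-885-5p and the miRNAs listed at 0 more than miR-122.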
